A study of Mus musculus with 6 samples.

Results

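Expression of 10 genes of MHC class I antigen presentation was examined in the gastrocnemius muscle of mice bearing a C26 tumor and of control mice. They were picked by name as members of the pathway, namely B2m, H2-K1, H2-D1, H2-T23, H2-T24, Tap1, Tap2, Tapbp, Nlrc5 and Erap1, and all 10 are present among the 13363 genes with deposited values. C26 is a mouse colon adenocarcinoma line whose growth under the skin causes wasting of skeletal muscle (cachexia). All animals were male BALB/c mice bought at 6 weeks of age, acclimated for 1 week and assigned at random. The C26 group received 500000 tumor cells under the right flank and the control group bore no tumor, with body weight followed for 15 days. RNA depleted of rRNA from 3 C26 and 3 control muscles was sequenced, and the deposited unit is FPKM, the fragments scaled to transcript length and to mapped reads, so levels can be compared between genes. The sources do not say that each sequenced muscle came from a separate mouse, and p-values measure only the spread between these samples.

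MHC class I molecules carry peptides from inside a cell to its surface, where CD8 T cells and natural killer cells read them. A heavy chain pairs with beta-2-microglobulin, the light chain encoded by B2m. H2-K1 and H2-D1 encode classical heavy chains, BALB/c mice also carry the classical gene H2-L, which was not analysed here, and H2-T23 encodes the non-classical chain Qa-1. Peptides cut by the proteasome are pumped into the endoplasmic reticulum by the transporter TAP, a pair of the Tap1 and Tap2 proteins, trimmed there by the aminopeptidase ERAP1 and loaded with the help of tapasin, the product of Tapbp. NLRC5 is a transactivator of class I genes, interferon gamma raises the whole set in most cell types, and healthy muscle fibers are known for little class I on their surface.

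Stretches of the promoters of B2m, H2-K1, H2-D1 and H2-T23, which were lower in the C26 muscles, are shown for the sequence context of these genes, and whether any motif in them bears on expression was not tested. RefSeq windows (GRCm38.p6, from 250 bases before to 50 bases after an annotated start) were at hand for 7 of the genes, namely B2m, H2-K1, H2-D1, H2-T23, Tap1, Tapbp and Erap1. The letters are those of the C57BL/6J reference, and BALB/c mice carry another class I haplotype. Capitals mark the motifs searched on both strands, which were chosen with the sequences in view. They are a pair of GAAA 2 bases apart, the core of an interferon response element, a variant with GAA and GAAAC 2 bases apart, the kappa B half-sites GGGGA and TCCCC 1 base apart, as in the class I enhancer A, and the CCAAT box, which reads ATTGG on the other strand. The B2m stretch (chr2:122147527-122147651, plus strand, 160 to 36 bases before the start) and the H2-K1 stretch (chr17:34000354-34000478, minus strand, 131 to 7 bases before the more upstream of its annotated starts) read:
B2m: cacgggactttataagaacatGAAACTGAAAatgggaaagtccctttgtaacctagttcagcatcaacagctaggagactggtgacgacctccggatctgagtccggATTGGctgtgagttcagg
H2-K1: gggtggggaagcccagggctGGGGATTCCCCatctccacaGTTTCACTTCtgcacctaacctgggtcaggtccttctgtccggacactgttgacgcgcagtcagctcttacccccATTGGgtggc

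For H2-D1 the 30 bases from the kappa B site through the interferon element (chr17:35262923-35262952, plus strand) follow those of H2-K1 (chr17:34000429-34000458, minus strand), together with 30 bases around the interferon element of H2-T23 (chr17:36032806-36032835, minus strand).
H2-K1: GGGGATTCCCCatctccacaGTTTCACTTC
H2-D1: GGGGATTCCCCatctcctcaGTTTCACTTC
H2-T23: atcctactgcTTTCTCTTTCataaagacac

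The classical heavy chain genes differed at 1 of these 30 bases and at 11 of the 125 bases around the kappa B site (91.2% identical). Of the 27025 genes with a window, some with more than 1, the kappa B half-sites were found in 0.0555%, H2-K1 and H2-D1 among them. The pair of GAAA was found in B2m, H2-T23 and Erap1 and in 3.99% of all genes, and its variant in H2-K1 and H2-D1 and in 2.01% of all genes. Of the 49 other pathway genes with a window, 1 held the kappa B half-sites, 5 the pair of GAAA and 7 its variant. A CCAAT box was found in 6 of the 7 genes, all but Erap1, in 30 of these 49 and in 41.1% of all genes. Counted by window, the shares were 0.0487%, 3.44%, 1.73% and 37.4% of 32851 windows, in the same order. None of these matches overlapped another in the class I genes. The pair of GAAA in Erap1 lies across the annotated start (-4 to 6 relative to it). In B2m it lies at -139 to -130 and in H2-T23 at -124 to -115.

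On GRCm38, 7 of the 10 genes lie on chromosome 17 within 2.12 megabases, from Tapbp (33915899 to 33929292) through H2-K1 (33996017 to 34000347), Tap1 (34187553 to 34197225), Tap2 (34203527 to 34216321), H2-D1 (35262730 to 35267499) and H2-T24 (36005695 to 36020560) to H2-T23 (36029773 to 36032855). B2m is on chromosome 2 (122147686 to 122153083), Nlrc5 on chromosome 8 (94434356 to 94527272) and Erap1 on chromosome 13 (74639568 to 74693201). The heavy chains are close paralogs. Of all the 50-base windows in the GENCODE transcripts of a gene, the length of a read here, 9.63% for H2-K1, 12.8% for H2-D1, 13.6% for H2-T23, 3.17% for H2-T24 and 2.87% for Tapbp also occur in transcripts of another gene. Tap1 and Tap2 share 25 windows, and B2m, Nlrc5 and Erap1 share none with any other gene. RSEM, which made the FPKM, divides such reads between genes, so single heavy chain values are uncertain by an amount that was not tested. How the BALB/c alleles aligned to the reference strain was not tested.

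Some facts of the series bear on all values. The FPKM summed to 531061 to 688300 per sample and read counts were not analysed here, so depth is unknown and the spread between samples is the error used. The muscle label held in every sample, with 13 of 13 skeletal muscle fiber genes present at a summed 171100 to 188300 FPKM in controls against 76700 to 119300 in C26. Control replicate 3 stood apart in leukocyte genes. The 14 listed leukocyte markers summed to 1002 FPKM there against 136 and 70.7 in control replicates 1 and 2 and 61.9 to 325 in the C26 muscles, and for the 6 listed markers of class II antigen-presenting cells it was 1409 against 72.7 and 43.7, with 4.91 to 19.6 in the C26 muscles. In bulk muscle, fewer cells of a type and less RNA per cell cannot be told apart.

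Most of the class I presentation genes were lower in the C26 muscles. Of the 10 genes, 7 fell, 0 rose and 3 were not called by limma, with p-values adjusted over all 13363 genes after Benjamini and Hochberg and a threshold of 0.05. Over all genes 14.5% fell and 19.4% rose. At an unadjusted p under 0.05 the 10 genes counted 9 lower and 1 higher, beside 22% and 25.1% of all genes. Of the 7, B2m, H2-T23, H2-T24, Tap2 and Nlrc5, thus 5 genes, also passed the fold change of 4 that the study set for differentially expressed genes, which 1.73% of all genes did downward and 1.77% upward. Every C26 FPKM was below every control FPKM for 8 of the 10 genes and for 34.6% of all genes, while the reverse held for 0 of the 10 and 18.7% of all. The median log2 fold change, C26 minus control, was -2.02 over the 10 genes and -0.05 over all genes. Fold changes are on the scale of log2(scaled TPM + 1), which understates those of weakly expressed genes.

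**Figure D1:**
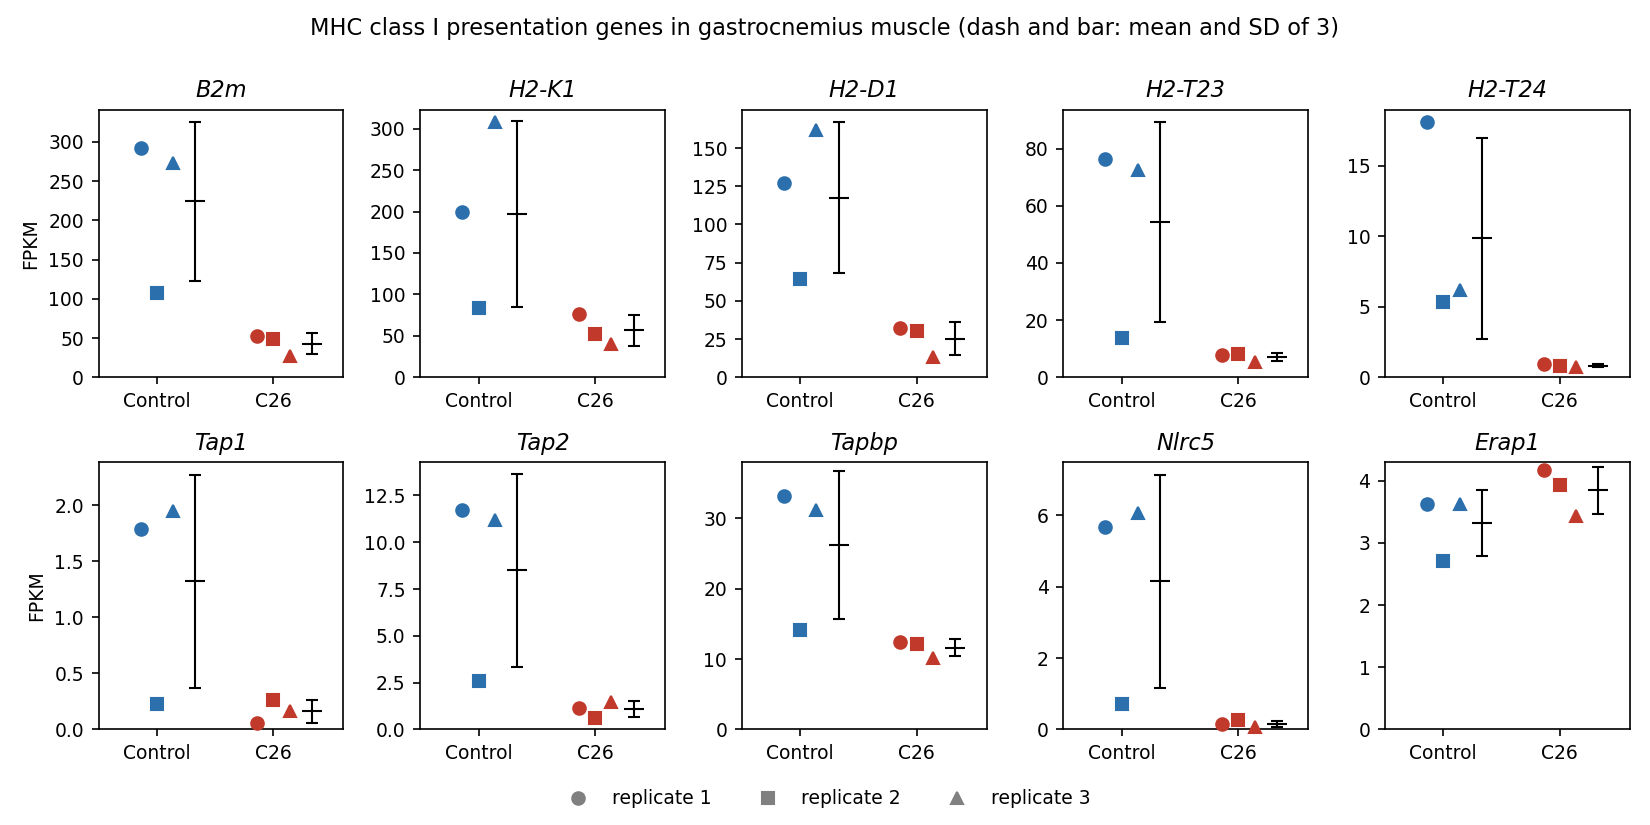
FPKM of each class I presentation gene in the 3 control and the 3 C26 muscles (vertical axes from 0, own scale per gene; symbols give the replicate number, dash and bar the mean and SD of 3). Control replicate 2 is the lowest control for every gene, and C26 values lie below all controls for 8 genes, with overlap for Tap1 and Erap1.

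B2m, the light chain shared by all class I molecules, had 292, 107 and 273 FPKM in control replicates 1, 2 and 3 and 52.1, 49.1 and 27.4 in C26 replicates 1, 2 and 3. The groups did not overlap, and control replicate 2 was 2.06 times the highest C26 muscle. B2m fell from 224 ± 102 to 42.9 ± 13.5 FPKM (mean ± SD, n = 3), a log2 change of -2.08 (SE 0.39, limma adjusted p = 0.0111).

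The classical heavy chains fell with it. H2-K1 had 199, 83.8 and 308 FPKM in the controls and 76.8, 52.6 and 40.7 in the C26 muscles. Control replicate 2 exceeded the highest C26 muscle by a factor of only 1.09, and the log2 change was -1.43 (SE 0.44, limma adjusted p = 0.0463). H2-D1 had 127, 64.0 and 162 FPKM in the controls and 32.2, 30.6 and 13.0 in the C26 muscles. Its groups were wider apart, with control replicate 2 at 1.99 times the highest C26 value and a log2 change of -1.99 (SE 0.41, limma adjusted p = 0.0143), a 3.96-fold difference just short of the study's fold criterion.

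Both non-classical heavy chains fell as well. H2-T23, whose Qa-1 product presents leader peptides to natural killer cell receptors, had 76.5, 13.9 and 72.5 FPKM in the controls and 7.65, 7.98 and 5.51 in the C26 muscles. The controls spanned a factor of 5.52 and the C26 muscles 1.45, without overlap between the groups. Its log2 change was -2.31 (SE 0.59, limma adjusted p = 0.0267). H2-T24 had 18.1, 5.35 and 6.17 FPKM in the controls and 0.94, 0.79 and 0.73 in the C26 muscles. Here control replicate 1 alone was high among the controls, and even control replicate 2 was 5.69 times the highest C26 value. With a log2 change of -2.52 (SE 0.41, limma adjusted p = 0.0079), H2-T24 had the largest fitted change of the 10 genes on this scale, but Nlrc5 was ahead of it with an added 0.1 (-3.74 against -3.07), and H2-T23 was with FPKM as deposited (-2.46 against -2.39) and with quantile normalization (-2.56 against -2.35), where B2m and H2-D1 were also ahead (-2.47 and -2.39). Without control replicate 2, H2-T23 and Nlrc5 were ahead (-3.04 and -2.94 against -2.77).

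In the loading machinery, the subunits of the peptide transporter were weakly expressed. Tap2 had 11.7, 2.57 and 11.2 FPKM in the controls and 1.14, 0.63 and 1.48 in the C26 muscles, without overlap, and fell by 2.05 on the log2 scale (SE 0.51, limma adjusted p = 0.0247). Tap1 had 1.79, 0.23 and 1.95 FPKM in the controls and 0.06, 0.26 and 0.16 in the C26 muscles. Control replicate 2 lay inside the C26 range, and the log2 difference of -1.08 (SE 0.40) did not pass the test (limma adjusted p = 0.0798).

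Tapbp, encoding the tapasin that bridges TAP and the heavy chain, had 33.2, 14.1 and 31.2 FPKM in the controls and 12.5, 12.1 and 10.2 in the C26 muscles. The groups did not overlap, but control replicate 2 was only 1.13 times the highest C26 value, and the log2 difference of -0.84 (SE 0.28) was not called (limma adjusted p = 0.0609). Erap1, the trimming aminopeptidase, was the only gene of the set with a higher mean in C26 muscles. It had 3.63, 2.71 and 3.63 FPKM in the controls and 4.17, 3.94 and 3.43 in the C26 muscles, which overlap, and its log2 difference of 0.37 (SE 0.13) did not pass the test (limma adjusted p = 0.0700).

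Nlrc5, the transactivator of class I genes, had 5.68, 0.71 and 6.06 FPKM in the controls and 0.15, 0.25 and 0.06 in the C26 muscles. The groups did not overlap, and the controls spanned a factor of 8.54, the widest of the 10 genes. Nlrc5 fell by 2.22 on the log2 scale (SE 0.57, limma adjusted p = 0.0279). The ratio of the mean FPKM, controls over C26 muscles, was 27.1 for Nlrc5, 12 for H2-T24 and 5.23 for B2m, so the added 1 weighs most on Nlrc5.

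By mean FPKM the order in the controls was B2m, H2-K1, H2-D1, H2-T23, Tapbp, H2-T24, Tap2, Nlrc5, Erap1 and Tap1. The ranges of neighbors overlapped for all pairs but Erap1 and Tap1. In control replicate 3 H2-K1 was above B2m and Tap2 above H2-T24. In control replicate 2 Tapbp was above H2-T23 and Erap1 above Nlrc5. In the C26 muscles the order was H2-K1, B2m, H2-D1, Tapbp, H2-T23, Erap1, Tap2, H2-T24, Tap1 and Nlrc5. There the ranges of H2-K1 and B2m, B2m and H2-D1, Tap2 and H2-T24, and Tap1 and Nlrc5 overlapped and those of the other neighbors did not.

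The 12 class I heavy chain genes in the table were summed, which removes the division of reads among them but not that with heavy chains outside the table, such as H2-Q1 and H2-Q10. The sum was 490, 193 and 627 FPKM in the controls and 129, 105.3 and 70.8 in the C26 muscles, without overlap. It fell by 1.76 on the log2 scale (SE 0.41, limma adjusted p = 0.0203), a 3.38-fold difference. H2-K1 and H2-D1 made up 66.6%, 76.7% and 74.9% of the sum in control replicates 1, 2 and 3 and 84.1%, 79.0% and 75.9% in C26 replicates 1, 2 and 3, ranges that overlap. Against their light chain, H2-K1 and H2-D1 together were 1.12, 1.38 and 1.72 times the FPKM of B2m in the controls and 2.09, 1.69 and 1.96 times in the C26 muscles. The mean log2 ratio was 0.47 ± 0.31 in controls and 0.93 ± 0.16 in C26 muscles (SD, n = 3), a difference of 0.46. The two-sided exact permutation p was 0.2, but 3 samples against 3 allow no p below 0.1, so the test could not have passed 0.05 and leaves the ratio undecided.

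The plot of the samples one by one shows that the high control level was carried by replicates 1 and 3. Control replicate 2 was the lowest control for 10 of the 10 genes and still lay above all C26 muscles for 8. Summed over the 10 genes, the FPKM were 769, 295 and 876 in control replicates 1, 2 and 3 and 188, 158 and 103 in C26 replicates 1, 2 and 3. Among the C26 muscles, replicate 3 had the lowest value for 8 of the 10 genes. Control replicate 1 was above all C26 muscles for 9 of the 10 genes.

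**Figure D2:**
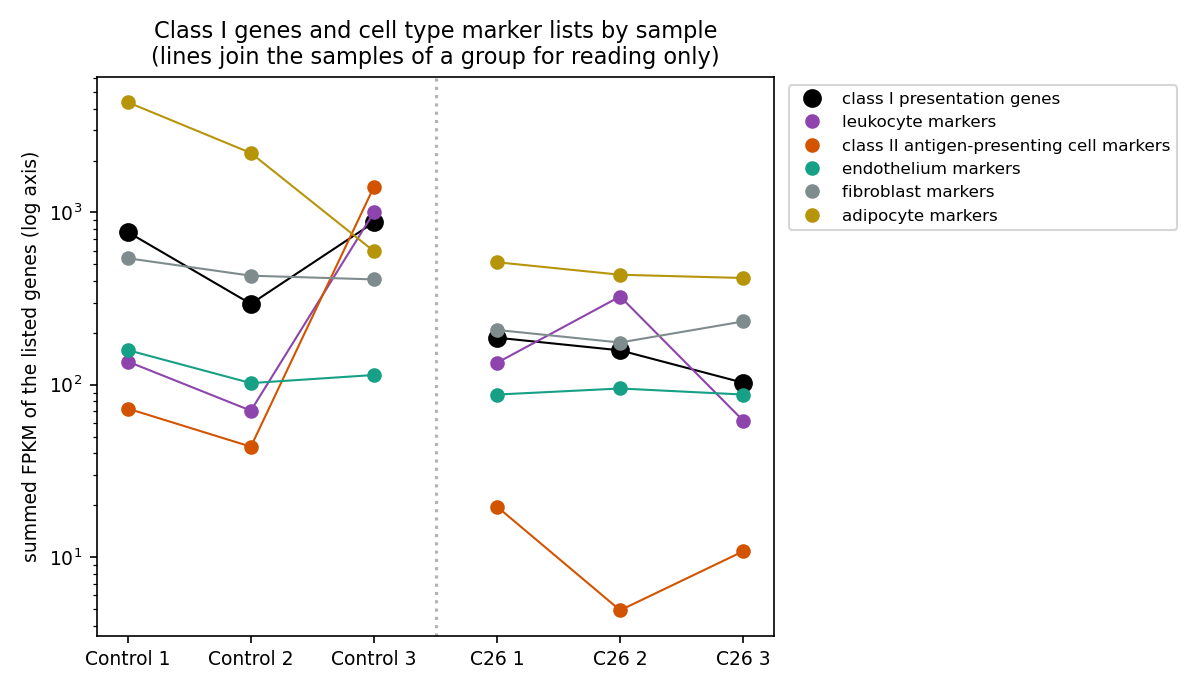
Summed FPKM (log axis) of the 10 class I presentation genes and of 5 marker lists in each sample. The class I sum is 769, 295 and 876 in control replicates 1, 2 and 3 and at most 188 in the C26 muscles, and the leukocyte and class II sums are highest in control replicate 3.

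Sums of cell type markers differed between the groups or in single samples. Of the 14 listed leukocyte markers limma called 0, and 1 was lower and 1 higher at an unadjusted p under 0.05. The C26 muscles all lay below the controls for Cd52 and Csf1r and above them for Cd68, a macrophage gene with 247 FPKM in C26 replicate 2 that made up most of the leukocyte sum there. Ptprc, the pan-leukocyte gene CD45, had 0.81, 0.40 and 40.1 FPKM in the controls and 0.40, 0.23 and 0.24 in the C26 muscles. The leukocyte sum of control replicate 3 was mostly Cd52, Coro1a, Lyz2 and Cd79b, at 256, 231, 188 and 134 FPKM. The complement gene C1qa, which macrophages express, had 32.4, 12.9 and 25.1 FPKM in the controls. In the C26 muscles it had 17.3, 14.96 and 10.3 FPKM, and the groups overlapped. Among the controls it was lowest in replicate 2, as were the class I genes and all other listed leukocyte markers but Cd79b. Its partner genes C1qb and C1qc had log2 differences of 0.04 and -0.16 and were not called (limma adjusted p = 0.933 and 0.699). The T cell genes Cd3e, Cd3d, Cd3g, Cd8a and Cd8b1 and the B cell genes Cd79a and Ms4a1 were not analysed here. Of the class II markers, Cd74 had 53.6, 35.2 and 1143 FPKM in the controls and 15.5, 3.79 and 8.69 in the C26 muscles, and limma called 0 of the 6, with 3 lower at an unadjusted p under 0.05. Adipocyte markers summed to 4359, 2212 and 595 FPKM in the controls against 416 to 514 in C26, and 6 of 8 fell. For fibroblast markers the sums were 409 to 542 FPKM against 176 to 233 in C26, and 5 of 9 fell. For endothelial markers they were 102 to 159 against 87.7 to 95.1, and 2 of 10 fell. Skeletal muscle fiber markers summed to 180700, 171100 and 188300 FPKM in the controls against 92430, 76700 and 119300 in C26, and 3 of 13 fell, or 8 of 13 counted by C26 muscles all below the controls. Every C26 value was below every control for 7 of 8 adipocyte, 8 of 9 fibroblast and 6 of 10 endothelial markers. Of all genes 14.5% fell and 34.6% had every C26 value below every control. By calls, though not by this separation, the endothelial list lies near that background. The part of these cell types in the class I values was not tested.

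Each sample was left out in turn to see which calls rest on a single muscle. B2m and H2-T24 fell in all 6 of these fits, with log2 fold changes of -2.48 to -1.74 and -2.77 to -2.02, and H2-D1 in 5, all but the fit without control replicate 1 (limma adjusted p = 0.0584). Tap2 kept its call in 2 fits, without control replicate 2 and without C26 replicate 3, and H2-K1, H2-T23 and Nlrc5 in 1, that without control replicate 2. Without control replicate 2 the genes that fell were 9 of 10, all but Erap1, with 10.5% of all genes lower. The count was 2 without control replicate 1, 3 without control replicate 3, 3 without C26 replicate 1, 3 without C26 replicate 2 and 4 without C26 replicate 3. The share of all genes that fell was 5.42% without control replicate 1, 5.01% without C26 replicate 1 and 7.08% without C26 replicate 2, and it was 14.7% without control replicate 3 and 16.2% without C26 replicate 3. None of the 10 changed direction in any of these fits. Without control replicate 3, the sample rich in leukocyte genes, B2m, H2-D1 and H2-T24 kept their calls. H2-T23, Nlrc5 and Tap2 had log2 differences of -1.98, -1.86 and -1.79 there (limma adjusted p = 0.0623, 0.0633 and 0.0590), and H2-K1 had -1.06 (0.0879). The summed heavy chains fell by 1.46 there on the log2 scale and stayed called, as they did without control replicate 2, and in the fits without control replicate 1 or any 1 of the C26 muscles the adjusted p lay between 0.0519 and 0.0759 (limma).

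**Figure D3:**
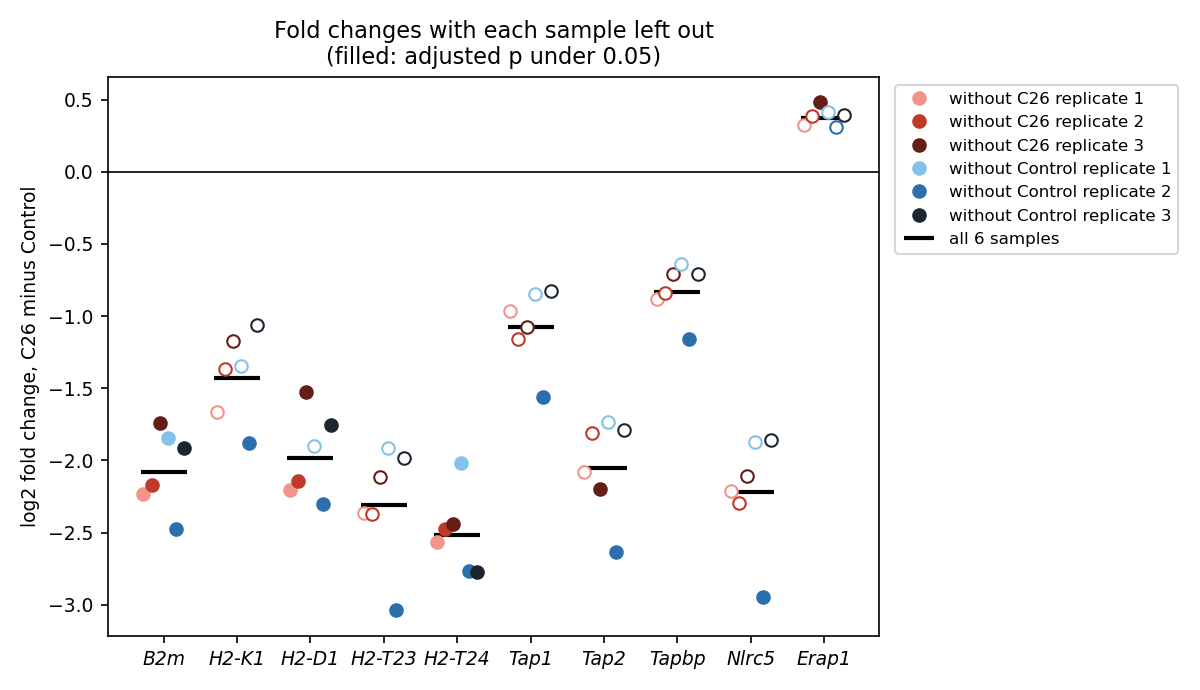
Log2 fold change, C26 minus control, of each class I presentation gene with all 6 samples (dash) and with each sample left out (points, filled where the adjusted p is under 0.05). The points of B2m and H2-T24 are all filled, and the fit without control replicate 2 gives the lowest point for 9 of the 10 genes, all but H2-T24.

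The rest of the class I pathway was described with 4 lists of 61 genes, 47 of which are present in the table. Of these, limma called 18 lower and 5 higher, beside the 14.5% and 19.4% of all genes given above, and their median log2 fold change was -0.71. Without C26 replicate 1, C26 replicate 2 or control replicate 1 the genes that fell numbered 8, 11 and 8. Of all genes 5.01%, 7.08% and 5.42% fell there. Those that rose numbered 1, 3 and 8 without C26 replicates 1, 2 and 3, beside 8.46%, 11.4% and 24.8% of all genes. Without control replicates 1 and 2 they numbered 2 and 3, beside 8.62% and 15% of all genes.

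Of the other heavy chains, 8 of 20 are in the table, all with lower means in C26 muscles, and 2 fell. H2-T22, a non-classical chain, had 44.8, 16.6 and 28.3 FPKM in the controls and 5.6, 6.55 and 6.64 in the C26 muscles, a log2 change of -1.84 (SE 0.31, limma adjusted p = 0.00848). H2-T10 fell by 1.24 (limma adjusted p = 0.0353) and kept its call without control replicate 2 but not when any other sample was left out. With all samples it lost the call with TPM without TMM, quantile normalization and the replicate block (limma adjusted p = 0.0511, 0.0932 and 0.0660). These are near copies, with 34.5% of the 50-base windows of H2-T22 and 32.9% of those of H2-T10 shared with another gene, and reads could be divided between them. H2-Q7 and H2-Q8 had log2 differences of -1.88 and -1.17 and were not called (limma adjusted p = 0.0573 and 0.0599). Both were called with an added 0.1 (0.0450 and 0.0468) and after removal of genes under a mean TPM of 1 (0.0447 and 0.0492), and H2-Q7 also without control replicate 2 (0.0234).

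Genes of peptide supply and loading split in both directions, with 5 lower, 4 higher and 5 not called of 14. Those that fell were the immunoproteasome subunits Psmb8 and Psmb10, the proteasome activator subunits Psme1 and Psme2 and the tapasin-related editor Tapbpl. Psmb8 had 24.2, 5.56 and 31.3 FPKM in the controls and 1.92, 1.69 and 1.11 in the C26 muscles, a log2 change of -2.80 (SE 0.55, limma adjusted p = 0.0128). Psme1 fell from 83.5 ± 23.3 to 20.9 ± 7.81 FPKM (SD, n = 3), and Psmb10, Tapbpl and Psme2 had log2 fold changes of -2.03, -1.46 and -1.17. Those that rose were the cytosolic peptidases Tpp2 and Thop1 and the general chaperones Canx and Hspa5 of the endoplasmic reticulum. Tpp2 rose from 9.51 ± 0.84 to 24.02 ± 5.02 FPKM (SD, n = 3), a log2 change of 1.47 (SE 0.19, limma adjusted p = 0.0048), and Canx, Hspa5 and Thop1 had log2 fold changes of 1.44, 1.25 and 0.66. Canx missed the threshold without C26 replicate 1 (limma adjusted p = 0.0501), and Tapbpl did so without control replicate 1 (0.0512), as did Psmb8 (0.0529). Psmb10 and Thop1 lost their calls without C26 replicate 1 and without control replicate 1, and Psme2 without either of these and without C26 replicate 2 (limma adjusted p of 0.0547 to 0.0695). Hspa5 kept its call without C26 replicate 3 but not when any other sample was left out (0.0783 to 0.138). With all samples, Hspa5 lost it with quantile normalization, the replicate block, FPKM as deposited and TPM without TMM, and Thop1 with quantile normalization. Calr and Pdia3, chaperones of the loading complex, had log2 differences of 0.68 and 0.24 and were not called (limma adjusted p = 0.145 and 0.510).

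Among the class I-like molecules 2 of 4 fell. Cd1d1, which presents lipids to natural killer T cells and likewise binds B2m, had 25.96, 7.40 and 3.10 FPKM in the controls and 0.20, 0.27 and 0.13 in the C26 muscles. Its log2 change was -3.41 (SE 0.66, limma adjusted p = 0.0123), and control replicate 3 was its lowest control, unlike for the 10 presentation genes. Without C26 replicate 1 its adjusted p was 0.0504 (limma). Fcgrt, the neonatal Fc receptor, fell by 0.67 in log2 units (limma adjusted p = 0.0472) and kept its call without control replicate 3 but not when any other sample was left out. With all samples it lost the call with an added 0.1, TPM without TMM, scaling without the 20 most abundant genes and the replicate block (limma adjusted p = 0.0647, 0.0557, 0.0727 and 0.0796). Hfe and Mr1 had log2 differences of -0.71 and -0.77 and were not called (limma adjusted p = 0.0817 and 0.187).

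Among 21 transcription factors and interferon signaling genes 9 fell and 1 rose. Irf1, an interferon-induced activator of class I genes, had 20.03, 7.89 and 20.3 FPKM in the controls and 2.40, 2.95 and 1.97 in the C26 muscles, a log2 change of -2.16 (SE 0.32, limma adjusted p = 0.00632). Control replicate 2 was its lowest control, and all controls were above the C26 muscles. Irf9 and the receptor chain Ifnar2 had log2 fold changes of -1.69 and -1.14, and Irf1, Irf9 and Ifnar2 fell whichever sample was left out. Irf2 rose by 0.76 (limma adjusted p = 0.0222), a call kept without C26 replicate 3 or control replicate 3 but not when any other sample was left out, and lost with FPKM as deposited, quantile normalization and the replicate block. Of the factors that hold NLRC5 at class I promoters, Rfx5, Rfxap, Rfxank, Nfya and Nfyc had log2 differences between -0.47 and 0.41 and were not called, while Nfyb fell by 0.81 (limma adjusted p = 0.0487). Nfyb kept its call without C26 replicate 3 but not when any other sample was left out, and lost it with an added 0.1, scaling without the 20 most abundant genes and the replicate block.

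**Figure D4:**
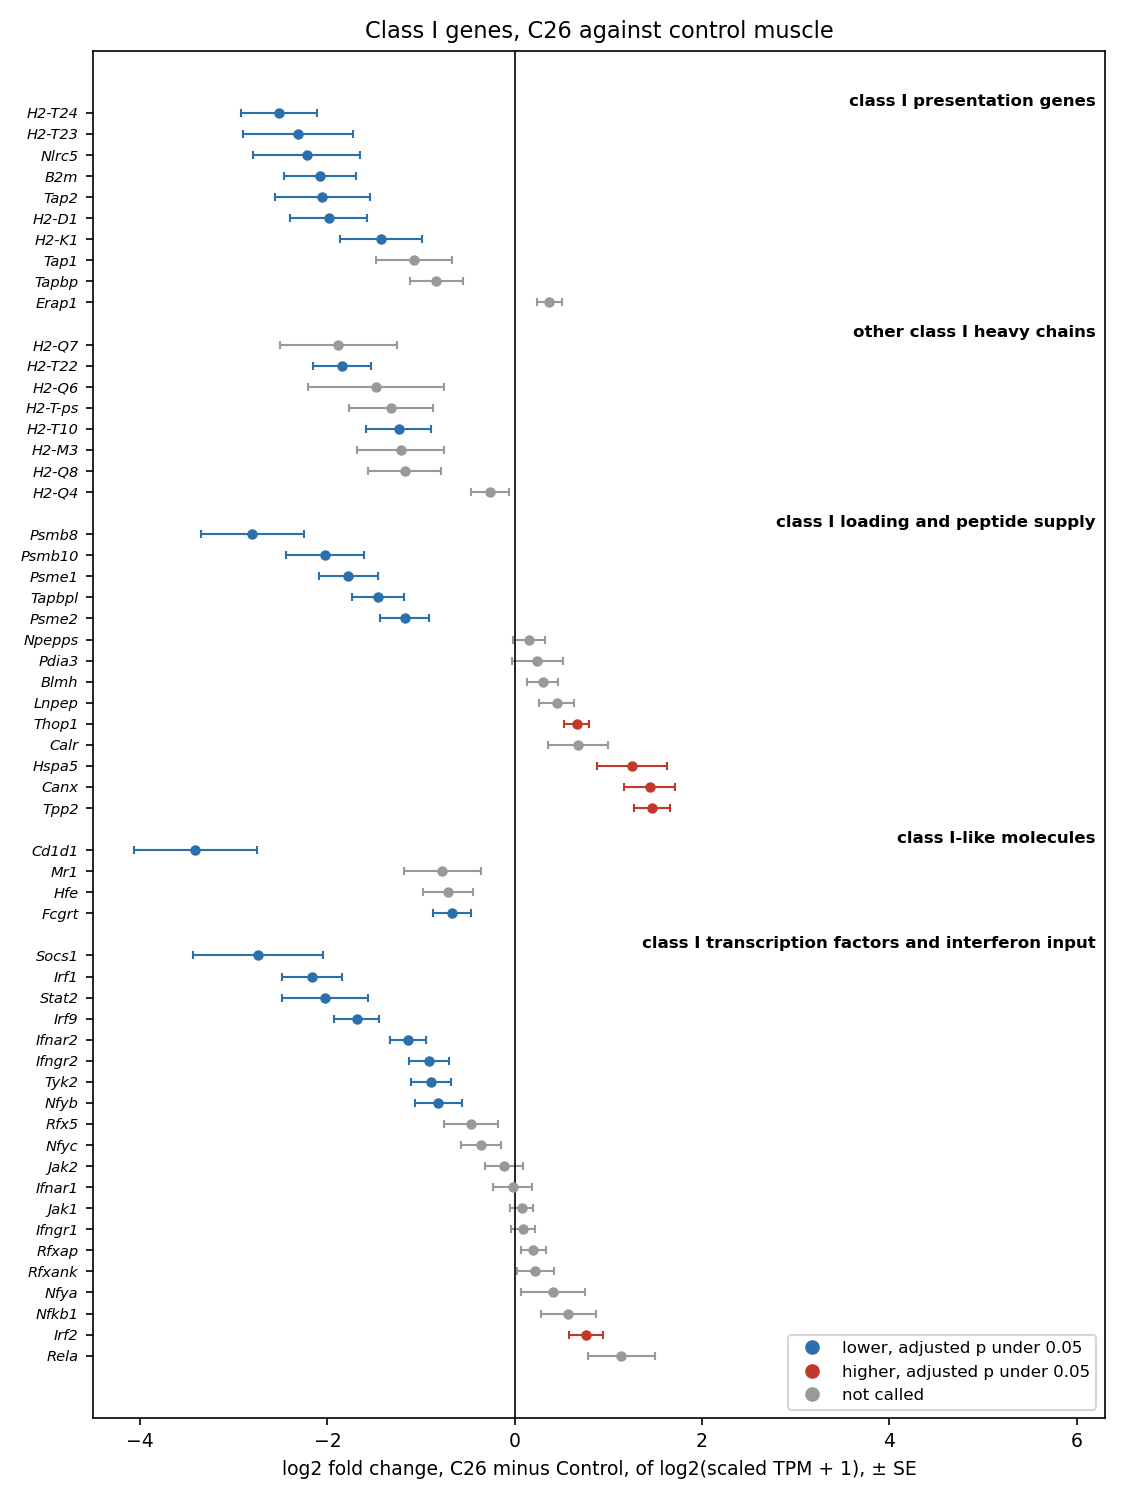
Log2 fold change, C26 minus control, with its SE for the 10 class I presentation genes and all but 1 of the 47 other pathway genes by list (blue, lower; red, higher; gray, not called at an adjusted p of 0.05). The heavy chains and immunoproteasome genes lie left of 0, and Tpp2, Canx, Hspa5, Thop1 and Irf2 are the called genes to the right.

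The genes most like the set over the 6 samples were sought by the Pearson correlation of their log2 value with the mean standardised log2 value of the 10 genes. They were Tent5a (r = 0.9996), Fam72a (0.9987), Siglec1 (0.9984), H2-T10 (0.9972) and Clec7a (0.9962). Siglec1 is a macrophage receptor known as sialoadhesin and Clec7a the myeloid receptor dectin-1. Siglec1 had 1.68, 0.30 and 1.65 FPKM in the controls and 0.19, 0.09 and 0.05 in the C26 muscles. All 5 were weakly expressed, below 5 FPKM in every sample. Over so few samples an r of at least 0.95 was reached by 118 genes outside the set, and the points share the groups themselves, so these values are a description.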

How the data were processed

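The authors filtered out adaptor, low-quality and rRNA reads, aligned 50-base single-end reads with bowtie2 and deposited the FPKM that RSEM estimated per Entrez gene. The submitters' processing notes also name HISAT2 2.0.4, Bowtie2 2.2.5, RSEM 1.2.12 and mm9, whereas the study's methods give GRCm38.p5. The values carry no coordinates, and those printed are of GRCm38. The extraction note in the labels speaks of a human cell line, while the values are of mouse muscle genes.

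Groups and replicate numbers came from the sample titles, and symbols were found for 13327 of 13363 gene IDs. The deposited FPKM were rescaled to TPM with a sum of 1000000, divided by unweighted TMM factors (trimming 30% of log ratios and 5% of mean levels), and log2-transformed after adding 1, with no low-value filter. Groups were compared with limma 3.58.1 under R 4.3.3. In simulated data for this comparison, with 200 of 13363 genes changed by 3 on the log2 scale, 186 were recovered (93%) and 8 unchanged genes were called. The 10 genes, gene lists and tests were chosen with earlier results of these data known. Besides the 10 genes, the rule named the 4 genes of each pathway list with the smallest adjusted p, all members of a count of 5 or fewer, and the 5 genes most like the set. The other genes given with values (Calr, Pdia3, the RFX and NF-Y genes, Cd52, Coro1a, Lyz2, Cd79b, C1qa, C1qb, C1qc, Csf1r, Cd68, Cd74 and Ptprc) were chosen after their values were seen. Alternatives were an added 0.1, removal of genes under a mean TPM of 1, other scalings, an intensity trend, the replicate number as a block, and each sample left out. Values of 1 pathway gene are not reported here, although the counts include it.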

Additional observations from a re-analysis of the deposited data

How the results depend on the processing

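Of the 10 genes, 5 to 8 fell under the 8 alternatives with all samples and 2 to 9 with a sample left out, and none of the 10 changed direction. Of 30 other pathway genes recomputed, 2 did, both uncalled: Rfxap with FPKM as deposited (log2 difference -0.001) and Pdia3 with quantile normalization (-0.16). Among uncalled genes, Hfe became called with FPKM as deposited and without control replicate 3, and Mr1, Calr and Nfyc without C26 replicate 3. H2-K1 lost its call with TPM without TMM, FPKM as deposited, scaling without the 20 most abundant genes and the replicate block, and Nlrc5 with the block. With quantile normalization Tapbp fell and Erap1 rose, so that 1 of the 10 rose in place of 0, and Erap1 also rose without C26 replicate 3. The genes past the fold of 4 numbered 4 to 6 under these alternatives and 1 to 6 with a sample left out, and the median log2 fold change lay between -2.39 and -1.64 with a sample left out. Of the other pathway genes, 8 to 19 fell and 1 to 8 rose with a sample left out, beside 5.01% to 16.2% and 8.46% to 24.8% of all genes. Those that rose were 3 with FPKM as deposited, 3 with quantile normalization and 3 with the replicate block. Of all genes 12.6%, 16.8% and 13.8% rose there. The log2 change of the summed heavy chains lay between -2.20 and -1.46 with a sample left out, and the log2 ratio of heavy chains to B2m differed by 0.31 to 0.62. The cause of these shifts was not tested. FPKM as deposited moved the median log2 change of all genes from -0.05 to -0.15 and the calls over all genes from 1931 lower and 2590 higher to 2504 and 1678. Deviations of same-numbered samples correlated across genes at -0.039, -0.084 and -0.112, and those of differently numbered samples at -0.1 to 0.125. Such values cannot decide whether the replicate numbers pair the samples, which the labels do not say. With the number as a block, 5 of the 10 genes fell, beside 9.25% of all genes. Depth is unknown, and with 3 samples a group the spread between the controls limits the precision.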
